A study of Homo sapiens with 3 samples.

Results

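The 2 arms of miR-483, hsa-miR-483-5p and hsa-miR-483-3p, were taken by name from the table of human miR counts in extracellular vesicles (EVs) shed by HepG2 cells. They were 2 of 512 listed miR names, of which 316 had at least 1 count. HepG2 is a human line established from a liver tumour, labelled as wildtype hepatocytes. The cells were moved to serum-free medium, and EVs were pelleted from the 48 h supernatant at 100000 × g for 70 min. RNA of 3 EV batches, about 200 ng each, gave 1 small RNA library per batch. All 3 batches form 1 group, so no treatment, genotype or time was compared, and RNA of the producer cells was not analysed here. The question asked of the data was how much of the EV miR pool each arm of miR-483 made up, and how steady this was from batch to batch.

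miR-483 is carried in an intron of IGF2, the imprinted gene of insulin-like growth factor 2, which is read from the paternal allele and is a main growth factor of the fetal liver. A miR precursor is a hairpin cut by Dicer into a 5p and a 3p arm. Usually one arm is loaded onto Argonaute and kept, and the other is largely degraded. The 3p arm is known to repress BBC3, a gene that promotes apoptosis, and the 5p arm is known to act on the IGF2 transcript itself.

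In the GENCODE 29 annotation of GRCh38, MIR483 lay at chr11:2134134-2134209 on the minus strand and was 76 bases long. Its position fell in an intron, with no exon overlap, in 10 of 10 spanning transcripts of IGF2 and of the INS-IGF2 readthrough gene, which run on the same strand. In IGF2-201, a protein-coding transcript of 4 exons, it was in intron 2, which spans chr11:2133666-2135366. The hairpin began 1157 bases after the upstream exon and ended 468 bases before the downstream one.

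The study searched for sites of abundant EV miRs in transcripts of ACTA2 (smooth muscle actin), collagens, matrix metalloproteinases (MMPs) and their inhibitors, the TIMPs. No site in ACTA2 was listed for miR-483-5p. Collagens, MMPs and TIMPs build and turn over the scar matrix of the fibrotic liver. The predicted miR-483-5p sites are shown because they are the stretches of those transcripts that the 5p arm was predicted to bind. Matched to GENCODE 29 transcripts, 11 of 11 distinct sites fell within an annotated 3′ UTR of the named gene. Sites of up to 30 bases are written 5′ to 3′ on the transcript strand, with the longest unbroken run of C and T in capitals, and each start and end is in GRCh38.
COL3A1, a fibrillar collagen of scars, chr2:189012387-189012405, plus strand: CTCCTCTTTTTTCTTgtca
COL4A1, a basement membrane collagen, chr13:110190782-110190801, minus strand: CTCCTTTCTTTCCggagttg
COL4A4, a basement membrane collagen, chr2:227007200-227007227, minus strand: CTCCCTTTCagtggttccttctgttttg
COL5A1, a collagen that regulates fibril assembly, chr9:134843447-134843470, plus strand: ctccctgCTTTCTTTatcctgtta
COL8A1, a short-chain collagen of vessels, chr3:99797381-99797399, plus strand: tcctgtctcagCCTCCCga
MMP15, a membrane-bound MMP, chr16:58046241-58046261, plus strand: ttccctgtgCCTCCTCCCTCC
MMP15, another site, chr16:58046582-58046599, plus strand: CTTCCTCTTTTCCTTCCC
MMP19, a secreted MMP, chr12:55836193-55836206, minus strand: CTCCCTCCCTCCCa
TIMP1, an inhibitor of MMPs, chrX:47586743-47586761, plus strand: ctcccaTCTTTCTTCCgga

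The remaining sites, in TIMP2 (chr17:78853570-78853618, minus strand, 49 bases) and in COL22A1 (32 bases), were longer and are not written out. The sites were rich in pyrimidines, with 65.6% to 100% C and T (median 79.6%). The 3′ UTRs that hold them had 47.9% to 55.1% C and T. The sites were chosen by predicted pairing with 1 miR, so a shared base composition follows from that choice and is given as a description only. The unbroken runs were 6 to 18 bases long. Only the bases after an annotated stop codon were searched. At 8 of the 11 sites, just 1 annotated transcript of the gene held the site there, as for COL3A1 (1 of 2 transcripts with a 3′ UTR). For COL4A4, which is among these, just 1 transcript had a 3′ UTR. The TIMP1 site was in 3 of 4. None of the 11 overlapped a site listed for another EV miR. These sites are predictions, and no transcript was measured in the counts.

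The libraries were shallow, with 8704, 10834 and 7933 miR counts in batches 1, 2 and 3. A count of 0 therefore allowed a share of up to 0.0345%, 0.0277% and 0.0378%. Hepatocyte miRs (4 of the 5 on the marker list were listed, all with counts) summed to 15.8% to 16.6% of the counts. Most of their 4450 counts came from miR-148a-3p (3169), with 820 from miR-192-5p and 444 from miR-122-5p. Blood cell miRs (2 of 6 listed had a count) reached at most 0.0185%, with miR-451a, miR-142-3p, miR-142-5p and miR-150-5p at 0. Endothelial miRs stayed at or below 0.0804%, those of stroma and smooth muscle at or below 0.126% and those of muscle at or below 0.0115%, and the only neuronal miR listed was at 0.

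miR-483-5p was one of the leading miRs of the EVs in every batch. It had 674, 904 and 667 counts in batches 1, 2 and 3. As a share of all miR counts, where 1% is 1 count in 100, these were 7.74% (95% Wilson interval 7.20% to 8.32%), 8.34% (7.84% to 8.88%) and 8.41% (7.82% to 9.04%). The intervals of all 3 batches overlapped, and they cover counting error only, since PCR reads are not independent molecules. The mean share was 8.17% ± 0.367 (SD, n = 3 batches), and the arm ranked 3, 5 and 5 of all miRs in batches 1, 2 and 3.

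miR-483-3p was a minor member of the pool, and its share was highest in batch 1. It had 55, 35 and 25 counts in batches 1, 2 and 3, or 0.632% (0.486% to 0.822%), 0.323% (0.232% to 0.449%) and 0.315% (0.214% to 0.465%) of the counts. The interval of batch 1 lay above those of batches 2 and 3, which covered each other almost fully. Its mean was 0.423% ± 0.181 (SD, n = 3), and it ranked 26, 35 and 34 of all miRs. Added up, both arms had 729, 939 and 692 counts, or 8.59% ± 0.187 of the total (SD, n = 3), which made miR-483 number 5 in the order of precursors, after miR-191, miR-423, miR-148a and miR-320a.

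**Figure D1:**
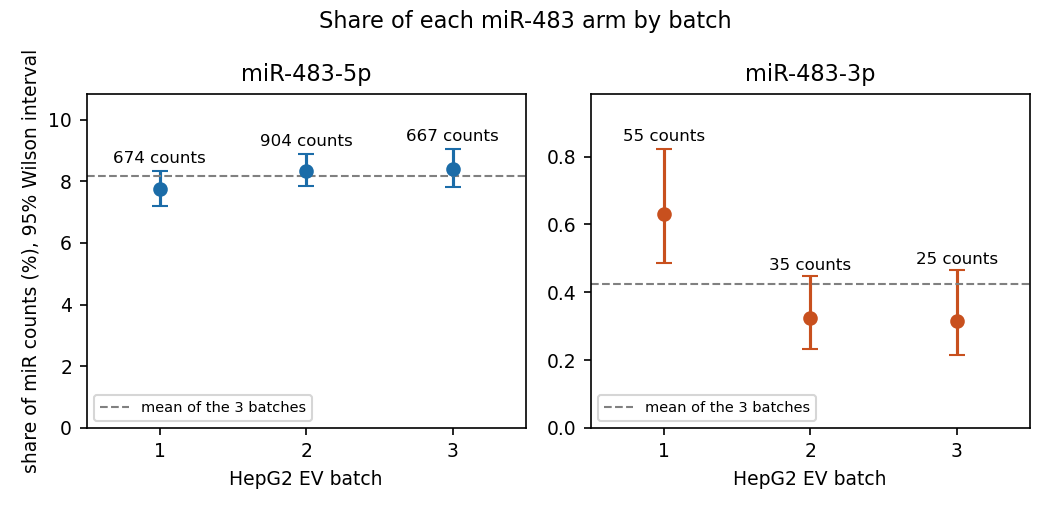
Share of all miR counts (%, vertical axis from 0) of miR-483-5p (left) and miR-483-3p (right) in each batch, with 95% Wilson intervals, the count above each point and the mean of the 3 batches as a dashed line. The 5p arm runs between 7.74% and 8.41% with overlapping intervals, and the 3p arm stands at 0.632% in batch 1 against 0.323% and 0.315% in batches 2 and 3.

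The share of every miR with at least 30 counts in sum was compared between the batches by an exact multinomial test, with Benjamini-Hochberg adjustment over all 64 such miRs and a threshold of 0.05. The test compares the libraries with counting error and compares no conditions. Of the 64 miRs, 25 (39.1%) differed between the batches. Against the batch total, batch 1 held the highest share of 19 of them, batch 2 of 4 and batch 3 of 2, a tally that changed with the scaling (8 of 22 calls highest in batch 1 under TMM). miR-483-3p was among these (exact p = 0.00158, adjusted p = 0.00639), with a share 2.01 times as high in its highest batch as in its lowest. miR-483-5p did not pass the test (exact p = 0.233, adjusted p = 0.373), and its highest share was 1.09 times its lowest. The call of 1 of the 2 arms is read against the 39.1% of all miRs tested.

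Set pair by pair, the share of miR-483-3p in batch 1 was 1.96 times that in batch 2 (95% interval 1.28 to 2.99) and 2.01 times that in batch 3 (1.25 to 3.21), while batch 2 over batch 3 gave 1.03 (0.614 to 1.71). For miR-483-5p the ratios were 0.928 (0.843 to 1.02) for batch 1 over batch 2, 0.921 (0.831 to 1.02) for batch 1 over batch 3 and 0.992 (0.902 to 1.09) for batch 2 over batch 3. Both intervals of the 3p arm against batch 1 left out 1, and all 3 intervals of the 5p arm held it.

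The spread between batches is also given by the coefficient of variation (CV, the SD divided by the mean). The CV of miR-483-5p was 4.49%, against 3.53% for counting error alone and a median CV of 23.1% over the 64 miRs. Only miR-574-3p had a lower CV (4.39%), and among the 30 most abundant miRs, with CVs of 4.49% to 65.0%, that of miR-483-5p was the lowest. Counting error alone gives a larger CV at low counts (16.1% for miR-574-3p), so the order and median of the CVs depend in part on abundance. The CV of miR-483-3p was 42.7%, against 16.3% for counting error, and 49 of the 64 miRs had a lower one. Chi-square per degree of freedom, which allows for counting error, was 1.44 for miR-483-5p and 6.93 for miR-483-3p, beside a median of 2.68. From the lowest up, miR-483-5p took place 25 of 64 by this measure and miR-483-3p place 51.

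**Figure D2:**
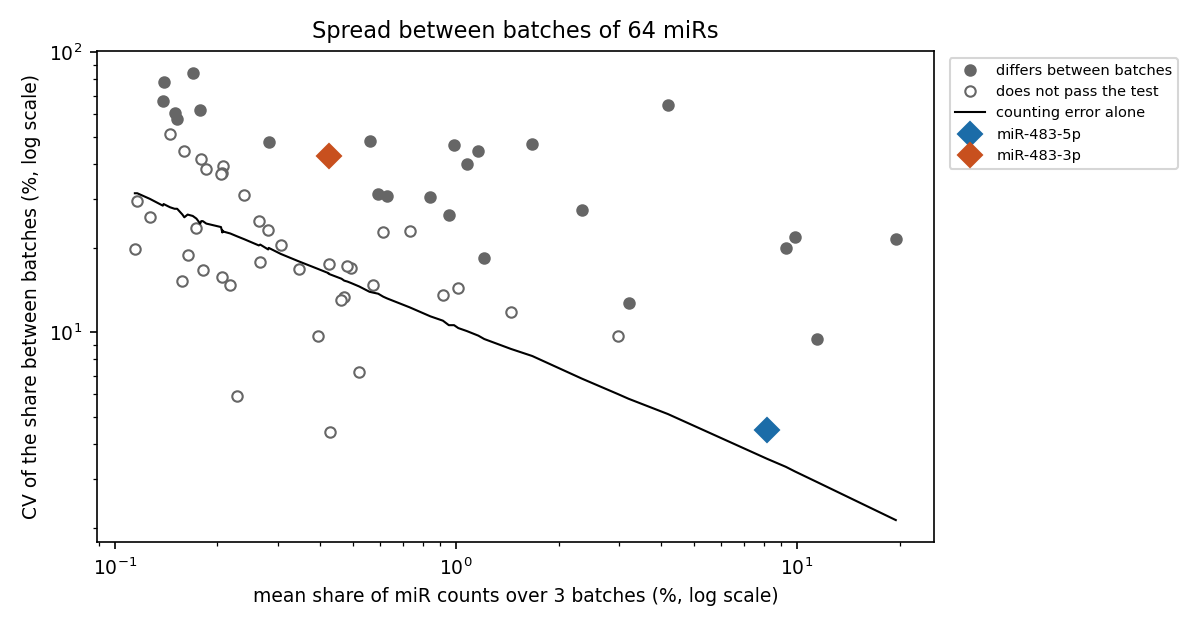
CV of the share between the 3 batches (%, log scale) against the mean share (%, log scale) for 64 miRs, with filled circles for the 25 that differed between batches, open circles for the others, the line of counting error alone, and diamonds for the miR-483 arms. miR-483-5p sits at a CV of 4.49%, near the line at 3.53%, and miR-483-3p at 42.7%, above its counting error of 16.3%.

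How steady each arm appeared depended on what the counts were divided by. TMM (edgeR) and DESeq2 size factors estimate the scale of a library from its middle miRs rather than from its total. The TMM factors were 1.23, 0.895 and 0.911 for batches 1, 2 and 3. Relative to the batch total, they moved every miR by -0.29, 0.17 and 0.14 on the log2 scale in batches 1, 2 and 3. Per TMM-scaled total, miR-483-5p stood at 6.35%, 9.36% and 9.27% in batches 1, 2 and 3 and differed between them (exact multinomial test, adjusted p = 1.51e-15), with a CV of 20.6%. On the same scale miR-483-3p stood at 0.518%, 0.362% and 0.347% and did not pass (adjusted p = 0.275), with a CV of 23.1%. Size factors of DESeq2 gave the same pattern, with 6.44%, 9.19% and 9.29% for the 5p arm (adjusted p = 1.49e-13) and 0.526%, 0.356% and 0.348% for the 3p arm (adjusted p = 0.219). The exact multinomial test took these scaled totals as known, so the error of estimating the factors is not in its p-values. Per 100 counts outside the 5 leading miRs, of which miR-483-5p is one, the 5p arm stood at 14.8, 22.6 and 23.3 and the 3p arm at 1.21, 0.873 and 0.874.

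In all 4 scalings the 5p arm was lowest and the 3p arm highest in batch 1. The arms thus exchanged places in the test: against the batch total the 3p arm differed and the 5p arm did not, and under the other 3 scalings the reverse held. TMM called 22 of the 64 miRs (34.4%), of which 15 were also called against the batch total. Batch 1 was highest for 8 of the 22 calls under TMM, for 8 of 22 under DESeq2 and for 5 of 16 without the 5 leading miRs, against 19 of 25 with the batch total.

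**Figure D3:**
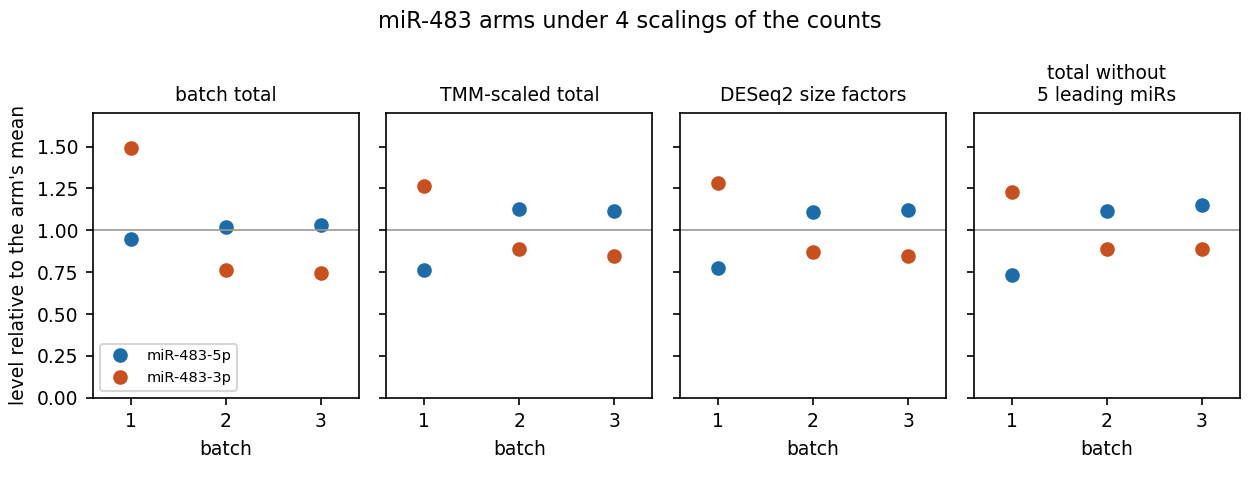
Level of each miR-483 arm relative to its own mean over the batches (vertical axis from 0) in batches 1, 2 and 3, for counts divided by the batch total, the TMM-scaled total, DESeq2 size factors and the total without the 5 leading miRs. In batch 1 the 5p arm lies at 0.948 of its mean against the batch total and at 0.762 under TMM, and the 3p arm at 1.49 and 1.27.

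The ratio of the arms needs no scaling, since both arms come from 1 library. The 5p arm outnumbered the 3p arm 12.3-fold, 25.8-fold and 26.7-fold in batches 1, 2 and 3. On the log2 scale, with 0.5 added to both arms, the ratios were 3.60, 4.67 and 4.71, with a mean of 4.33 ± 0.63 (SD, n = 3). The 5p arm was higher in 3 of 3 batches, which in an exact sign-flip test (two-sided) has p = 0.25, the lowest value that 3 batches allow. Ligation of adapters depends on the ends of a small RNA, so a ratio of counts is not a ratio of molecules, and its part in these ratios was not tested.

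The arm ratio of miR-483 differed between batches. The 3p arm made up 7.54% of the miR-483 counts in batch 1 (95% Wilson interval 5.84% to 9.69%), 3.73% in batch 2 (2.69% to 5.14%) and 3.61% in batch 3 (2.46% to 5.28%). An exact Fisher-Freeman-Halton test over the batches gave p = 0.000521 (adjusted p = 0.00399 over 23 precursors). At the pooled 4.87%, 35.5 counts of the 3p arm would fall in batch 1, where 55 were found, 45.8 in batch 2, where 35 were found, and 33.7 in batch 3, where 25 were found. The odds of the 3p over the 5p arm in batch 1 were 2.11 times those in batch 2 (95% interval 1.34 to 3.36) and 2.18 times those in batch 3 (1.32 to 3.69), and batch 2 over batch 3 gave 1.03 (0.594 to 1.82). The call rested on batch 1: without it, batches 2 and 3 gave an adjusted p of 1.

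Of the 23 precursors with at least 30 counts over both arms and at least 1 in each, 3 (13.0%) had an arm ratio that differed between batches, namely miR-423, miR-483 and miR-148a. Most of the others had few counts of the minor arm. Among the 9 precursors with at least 10 counts in each arm, miR-483 included, 5 (55.6%) differed when adjusted over those 9. miR-483 held more 5p, as did 11 of the 23 in all, while 12 held more 3p. By mean log2 ratio it took place 6, between miR-146b (5.49) and miR-185 (4.66) above and miR-93 (4.18) and miR-99b (2.52) below. This place is not firm, because the 3p arm summed to only 2 counts in miR-146b, 1 in miR-185 and 8 in miR-93. The 3p arms of miR-191, miR-21 and miR-122, which filled the top places, had 1 count each. With so few counts the size of the ratio is largely set by the 0.5 added and by the depth of the 5p arm. Even so, the lowest batch values of miR-191 (10.6), miR-21 (8.73) and miR-122 (6.04) lay above the highest of miR-483 (4.71). The order of miR-483 against miR-146b, miR-185 and miR-93, whose batch values overlapped its own, was not resolved. Of the 4 neighbours in this order, miR-99b had the most counts of the 3p arm (44). The 115 counts of miR-483-3p were, among the minor arms of the 23 precursors, second only to the 882 of miR-423-3p.

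**Figure D4:**
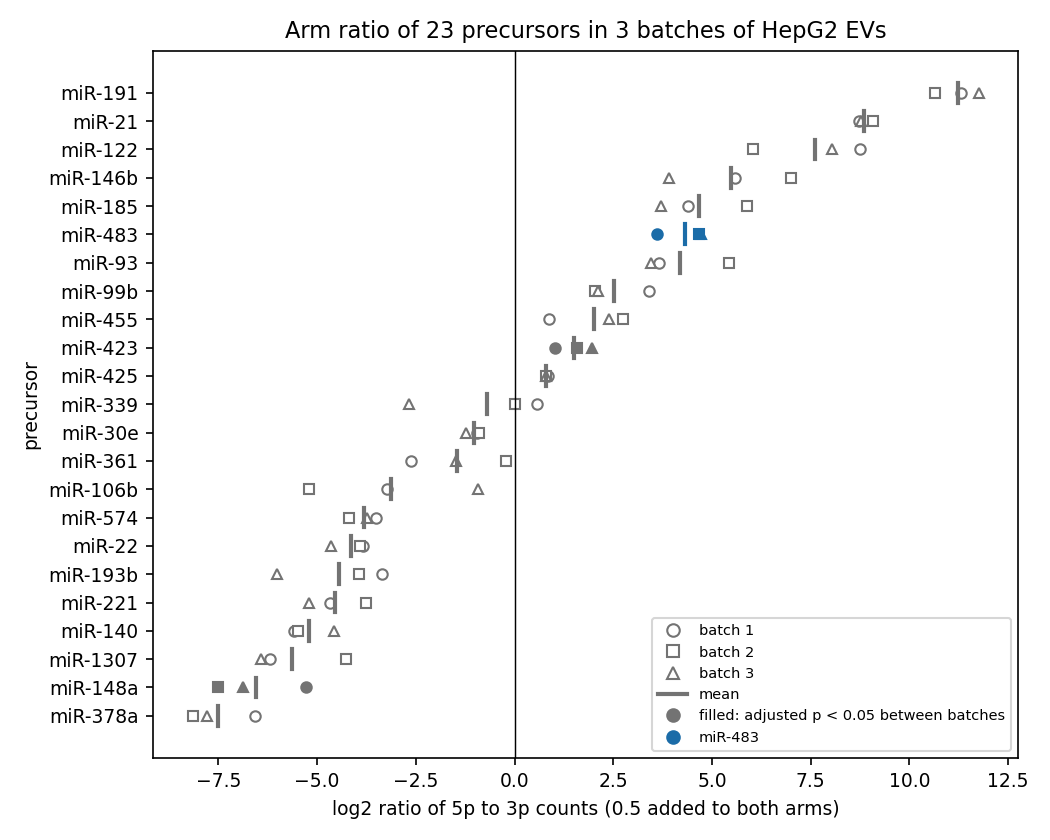
log2 ratio of 5p to 3p counts (0.5 added to both arms, horizontal axis) for 23 precursors, with a point per batch, a bar at the mean and filled points where the ratio differed between batches. miR-483, in blue, is in place 6 from the top with a mean of 4.33, and its batch 1 point at 3.60 lies left of batches 2 and 3 at 4.67 and 4.71. The 5 precursors above it have only 1 or 2 counts of the 3p arm, so their points are largely set by the 0.5 added and by the depth of the 5p arm.

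miR-423 is the precursor to set beside miR-483, since it is the other one called with its 3p share highest in batch 1. Its mature arms are shown with the seed, the bases 2 to 8 that pair with a target, in capitals, as RefSeq gives them for GRCh38.p14 (chr17:30117095-30117117 for the 5p and chr17:30117131-30117153 for the 3p arm, plus strand).
miR-423-5p: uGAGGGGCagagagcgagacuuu
miR-423-3p: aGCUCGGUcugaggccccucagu

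The 3p arm made up 33.0%, 25.1% and 20.4% of the miR-423 counts in batches 1, 2 and 3 (exact test, adjusted p = 1.17e-08). Between batches 2 and 3 alone, miR-423 did not pass the exact test after adjustment (p = 0.00599, adjusted p = 0.102 over 17 precursors). The 3p share of miR-423 still fell from batch 2 to batch 3, while that of miR-483 was nearly level (3.73% and 3.61%). The call of miR-423 after adjustment needed batch 1, but its difference was not confined to that batch as clearly as that of miR-483. In miR-148a the 5p is the minor arm, with 2.45%, 0.509% and 0.782% of its counts in batches 1, 2 and 3 (adjusted p = 0.00133).

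By rank, miR-483-5p stood next to miR-320a and miR-423-5p above it and to miR-21-5p and miR-423-3p below it. Its share minus that of miR-320a (7.42%, 10.7% and 11.5%) averaged -1.71 points with an SD of 1.79, and minus that of miR-423-5p (7.41%, 9.29% and 11.1%) it averaged -1.11 points with an SD of 1.52. It was above each of them in batch 1 only, so neither difference in order exceeded its spread. It was higher in 3 of 3 batches than miR-21-5p, a miR raised in many tumours (7.32%, 2.47% and 2.76%), by 3.98 points (SD 3.08), and than miR-423-3p by 4.96 points (SD 0.770). The exact sign-flip p was 0.25 against miR-21-5p and against miR-423-3p, the smallest possible with n = 3.

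miR-483-3p could not be placed firmly among its neighbours in rank. miR-574-3p, miR-484, miR-532-5p and miR-193b-3p lay within 0.0762 points of it on average, all within the SD of the difference. Over each of these 4 it was higher in 1 of 3 batches, which was batch 1.

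Likeness of pattern was measured as the Euclidean distance between log2 shares centred on their mean over the 3 batches, for the 63 other miRs with at least 30 counts. Closest to miR-483-5p were miR-192-5p (distance 0.116), miR-148a-3p (0.140) and miR-574-3p (0.181). miR-192-5p, a miR of hepatocytes and gut epithelium, had 234, 327 and 259 counts in batches 1, 2 and 3, and miR-148a-3p, abundant in liver, had 914, 1367 and 888. miR-122-5p, also on the hepatocyte marker list, did not follow these 2. Its share was highest in batch 1 and differed between batches (CV 47.1%, exact multinomial test, adjusted p = 8.13e-16). Closest to miR-483-3p were miR-99b-5p (0.118), let-7a-5p (0.139) and miR-151a-3p (0.217). miR-99b-5p had 132, 83 and 54 counts and let-7a-5p, of a family that restrains growth, had 23, 16 and 10, so both were highest in batch 1. The opposite arm stood only at place 49 of 63 for miR-483-5p, at a distance of 0.898. With 3 batches that share their totals, these distances are a description.

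Other miRs of imprinted loci had few or no counts in the EVs. Of 36 listed miRs on a list of imprinted loci, 6 had at least 2 counts in sum, and both miR-483 arms made up 99.2% of the 2379 counts of the list. The remaining 34 names held 19 counts, or 0.0692% of all counts. At the MEST locus, miR-335-5p had 4, 0 and 2 counts in batches 1, 2 and 3 and miR-335-3p had 1, 2 and 1. The DLK1-DIO3 cluster, the largest on the list, had 4 counts over 28 names, with miR-127-3p at 1, 1 and 0. In the primate-specific C19MC cluster, known from placenta, 3 names had 5 counts, of which miR-522-3p had 3, 0 and 0. The single listed miR of the GNAS locus was at 0. At this depth miRs at a few counts could not be told apart from those at 0.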

How the data were processed

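Small RNA was sequenced from 3 batches of HepG2 EVs. The authors prepared NEBNext libraries, ran them on an Illumina MiniSeq and checked quality with miRTrace. They deposited raw counts per miR name, not normalized, in 2 tables, and all 205 names of the smaller one had equal counts in the larger one. The submitters' processing notes name GRCh38. For aligner and counter, names were not given in the sources used here. Nothing in the labels ties the batches to separate cultures, so differences between these libraries may be technical. The exact tests of shares and of arm ratios set those differences against counting error only. The libraries differed by more than counting error and none was counted as a duplicate.

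Shares of the batch total, Wilson intervals (95%), exact multinomial tests (miRs with at least 30 counts in sum), exact Fisher-Freeman-Halton tests of arm ratios (at least 30 counts over both arms and 1 in each) and Benjamini-Hochberg adjustment were computed in Python 3.11.15 with scipy 1.17.1. TMM factors came from edgeR 4.0.16 and size factors from DESeq2 1.42.0, both on R 4.3.3. The tests were checked on simulated counts drawn with counting error only, so that check did not cover spread beyond it. Named miRs were the arms, their 2 neighbours on each side in rank and in arm ratio, the 3 most alike in pattern, and imprinted miRs with at least 2 counts. The members, lists and tests were chosen with earlier results of these data known. The pairwise intervals (normal on the log scale for shares, conditional exact for odds), the precursor miR-423 as a comparison and the pyrimidine content of the sites were chosen after values were seen. Target site sequences came from the study's supplementary table, and none of its values were used.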

Additional observations from a re-analysis of the deposited data

How the results depend on the processing

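Scaling and batch 1 changed the calls. The adjusted p of the miR-483-5p share, 0.373 against the batch total, was 1.51e-15 with TMM, 1.49e-13 with DESeq2 and 1.07e-19 without the 5 leading miRs. That of miR-483-3p, 0.00639, was 0.275 with TMM, 0.219 with DESeq2 and 0.431 without the 5 leading miRs. The values with TMM and DESeq2 leave out the error of estimating their factors. The mean shares per 100 counts outside those 5 were 20.2 for the 5p and 0.985 for the 3p arm. Leaving out each batch in turn gave adjusted p of 0.251 to 0.976 for the 5p share, 0.00823 to 1 for the 3p share and 0.00477 to 1 for the arm ratio, each 1 being without batch 1, and mean shares of 8.04% to 8.38% for the 5p arm and 0.319% to 0.477% for the 3p arm. Without batch 1, the exact multinomial test called 4 of 50 miRs and the exact arm test 0 of 17 precursors (2 at an unadjusted p under 0.05). The arm test called 5 of 9 precursors with at least 10 counts in each arm, and 16 of 60 miRs differed in share without the 5 leading miRs. The log2 ratio ran from 4.14 to 4.69 with each batch left out and kept its direction under all 6 alternatives. None of these could have turned it, since the 5p arm was higher in every batch. Of the imprinted list, 10 miRs had at least 1 count, beside 316 of all 512 names, and 2 had at least 10, beside 99 of all names. The planned search of 3′ UTRs for seed matches was not run. With 25 to 55 counts per batch, depth limited the 3p arm. No paired analysis was possible because the 3 batches form a single group.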

Other observations

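In each of the 3 precursors whose arm ratio differed between batches, the minor arm took its highest share in batch 1, namely the 3p arm in miR-483 and miR-423 and the 5p arm in miR-148a. Over all 23 precursors tested, the minor arm was highest in batch 1 in 11, and over the 9 with at least 10 counts of the minor arm in 6. This count was chosen after the values were seen and was not tested.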
